A study of Mus musculus with 59 samples.

Results

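The 7 arrays described here are the livers of mice that had received 1 dose of baclofen (4 arrays) or 1 dose of vehicle (3 arrays), out of 59 arrays of liver, bone marrow and spleen in the series. They were chosen by the sample title, and the treatment field names the same treatment. B6C3F1 mice, a cross of the C57BL/6 and C3H strains, were dosed with baclofen in 0.5% methylcellulose or with 0.5% methylcellulose alone, and a portion of the left lateral lobe was taken 2 h after the last dose. The samples used for comparison are the livers of mice given 5 daily doses (8 baclofen and 4 vehicle arrays), and the bone marrow and spleen after 1 dose (4 baclofen and 4 vehicle arrays each). The dose, sex and age of the mice are not given in the labels, and replicates are numbered without a statement that each is a separate animal, so the p-values below measure only the spread between these samples. The question put to the data was which liver transcripts differed between baclofen and vehicle after 1 dose.

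Baclofen activates the GABA-B receptor, which binds the transmitter gamma-aminobutyric acid, acts through inhibitory G proteins and is known chiefly from nerve cells, where it opens potassium channels and lowers transmitter release. The liver keeps blood glucose up between meals by breaking down glycogen and by making glucose from lactate, glycerol and amino acids. Insulin holds the genes of glucose output down by keeping FOXO transcription factors out of the nucleus, while glucagon, through cAMP and CREB, and glucocorticoids, through their own receptor, raise them. Liver-enriched factors of the FOXA, HNF and C/EBP families keep hepatocyte genes active and are part of how these hormones act on the genome.

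Values are the log2 of the deposited array intensities, and in lists of values the baclofen livers are given as replicates 1 to 4 and the vehicle livers as replicates 1 to 3. A difference is the mean of the baclofen livers minus the mean of the vehicle livers on the log2 scale, with its standard error (SE) from a limma fit of all 19 livers, and a gene is said to rise or fall only where the adjusted p was under 0.05. The source field and the title disagree on the treatment of 5 of the 7 livers. With groups taken from the source field 0 genes passed in limma, 456 had an unadjusted p under 0.05, and 282 of the 291 genes that passed by title, and so were picked by it, had the opposite sign. For baclofen replicate 1 and vehicle replicate 1 every label names the same treatment. The lowest correlation between any of the 7 arrays across probe sets was 0.990. Control probe sets near the 3' end of a transcript exceeded those near the 5' end, a sign of RNA quality, by 0.445 ± 0.036 in baclofen livers and 0.469 ± 0.034 in vehicle livers (SD, n = 4 and 3, exact permutation test, 2-sided p = 0.457, with 0.0571 the smallest p that 35 splits allow). Averaged over 11 hepatocyte genes, the log2 intensity was 14.52 ± 0.02 in baclofen livers and 14.53 ± 0.02 in vehicle livers (SD, n = 4 and 3). None of the 59 tested members of the 12 lists of cell type and sex-linked marker genes passed the threshold, against 2.67% of all tested genes. Leaving out dim genes left 1 lymphocyte, 1 red cell, 1 skeletal muscle and 2 neutrophil genes. It left 2 cholangiocyte, 2 adipocyte and 3 pancreas acinar genes, so these lists say little about those cell types. Of 11 tested Kupffer cell and macrophage genes 10 were lower in baclofen livers, with a median difference of -0.35, or -0.10 without vehicle replicate 1 and -0.15 with array weights. The summed intensity of that list ran from 4485 to 7772 in baclofen livers and from 5533 to 9662 in vehicle livers. In bulk tissue, fewer cells of a type and less RNA per cell cannot be told apart.

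After 1 dose of baclofen, 291 of 10916 tested genes differed between the groups, which is 2.67% of them. Of these, 172 rose (1.58%) and 119 fell (1.09%), and 68 rose and 24 fell at least 2-fold. The groups did not overlap for 284 of the 291, against 12.5% of all tested genes (6.2% with the baclofen livers all higher and 6.34% with them all lower). The median difference was 0.83 among the genes that rose and -0.57 among those that fell, against -0.01 over all tested genes. The largest rises were those of Igfbp1, Ddit4, Mt2, Snhg3, Ppp1r3g and Mfsd2a, and the largest falls those of Phlda1, Hhex, Arrdc3, Osgin1 and Foxq1. When single livers were left out, 136 genes passed without vehicle replicate 2 and 181 without vehicle replicate 1, and 184 passed without baclofen replicate 4. Of the 71 genes past the threshold that are named below, 46 kept their call whichever of the 7 livers was left out, and for each of the others the livers whose removal ends the call are given.

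Igfbp1 (chromosome 11, 7197787 to 7202546 on GRCm38.p6) encodes a liver-secreted binding protein of insulin-like growth factors that insulin represses. Igfbp1 had log2 intensities of 13.77, 13.29, 12.35 and 13.57 in baclofen livers, against 10.59, 7.26 and 8.95 in vehicle livers. Every baclofen liver lay above every vehicle liver, and the vehicle livers were the more spread out, with replicate 2 lowest. The difference was 4.31 ± 0.60, or 19.8-fold (adjusted p = 0.000349). In the list of growth hormone and insulin-like growth factor genes it was the only member of 11 tested that rose. Cish, a feedback inhibitor of growth hormone signalling, was the only member that fell, with 6.91, 7.35, 6.36 and 7.45 in baclofen livers and 9.97, 9.55 and 7.72 in vehicle livers. The groups did not overlap, but vehicle replicate 3 lay close to the baclofen livers. Its difference of -2.06 ± 0.46 (adjusted p = 0.017) missed the threshold when either vehicle replicate 1 or 2 was left out (adjusted p = 0.115 each time). No member of the list of 16 tested insulin receptor and PI3-kinase genes passed in limma, against 2.67% of all tested genes. Differences in the list ran from -0.56 to 0.92, with a median of -0.03. In baclofen livers 6 members were higher and 10 lower. The lowest difference was that of Irs1, the gene of the receptor's docking protein (-0.56 ± 0.25, adjusted p = 0.352). The highest, 0.92, was larger in size and also missed the threshold.

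Of 14 gluconeogenesis genes 6 rose, against 1.58% of all tested genes, and none fell. The median difference was 0.34 over the list, and the rise count was 4 without baclofen replicate 2 or 4 or vehicle replicate 1. G6pc encodes the enzyme subunit that releases free glucose from glucose 6-phosphate. It had 12.97, 12.68, 12.67 and 13.07 in baclofen livers, against 10.75, 11.20 and 11.34 in vehicle livers. The groups did not overlap, and vehicle replicate 1 was the lowest. The difference was 1.75 ± 0.23, or 3.37-fold (adjusted p = 0.000262). Ppargc1a, a transcriptional coactivator that glucagon and cAMP induce in fasting liver, had 8.81, 9.61, 9.63 and 10.00 in baclofen livers, against 7.66, 8.23 and 7.95 in vehicle livers. Its groups did not overlap, and baclofen replicate 1 was the nearest to the vehicle livers. It rose by 1.57 ± 0.24 (2.97-fold, adjusted p = 0.000728). Foxo1, the FOXO factor through which insulin acts on these genes, had 9.67, 9.84, 9.80 and 9.60 in baclofen livers, against 8.57, 8.64 and 8.86 in vehicle livers, a rise of 1.04 ± 0.13 (adjusted p = 0.000184) with no overlap. Foxo3 rose by 0.79 ± 0.20 (adjusted p = 0.0347) and lost its call without baclofen replicate 2 or 4 or any vehicle replicate (adjusted p = 0.0798 to 0.139). The transaminase genes Gpt2 and Got1 rose by 0.68 ± 0.12 and 0.92 ± 0.21 (adjusted p = 0.00341 and 0.0231), and Got1 lost its call without baclofen replicate 2 or 4 or vehicle replicate 1 (adjusted p = 0.0674 to 0.139). Pck1, phosphoenolpyruvate carboxykinase, had 13.62, 13.62, 13.72 and 13.67 in baclofen livers and 13.37, 13.07 and 13.33 in vehicle livers. The groups did not overlap, but its difference of 0.40 ± 0.12 missed the threshold (adjusted p = 0.0889), and Pck1 is named because it is the best known enzyme of the pathway, after its values were seen.

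The promoters of Igfbp1, G6pc and Ppargc1a, shown because these raised genes are known targets of insulin or cAMP and hold a motif of those pathways, are printed from RefSeq on assembly GRCm38.p6, from 250 bases before to 50 bases after the annotated start, 5′ to 3′ on the gene's strand. The capitals in Igfbp1 (chr11:7197537-7197836, plus strand) and in G6pc (chr11:101367466-101367765, plus strand) mark CAAAACA, the core of the insulin response sequence that FOXO factors bind, which in G6pc lies on the opposite strand and reads TGTTTTG. It begins 108 bases before the Igfbp1 start and 174 bases before the G6pc start. The capitals in Ppargc1a (chr5:51567676-51567975, minus strand) mark TGACG, the core of the cAMP response element, on the opposite strand as CGTCA, 49 bases before the start.
Igfbp1: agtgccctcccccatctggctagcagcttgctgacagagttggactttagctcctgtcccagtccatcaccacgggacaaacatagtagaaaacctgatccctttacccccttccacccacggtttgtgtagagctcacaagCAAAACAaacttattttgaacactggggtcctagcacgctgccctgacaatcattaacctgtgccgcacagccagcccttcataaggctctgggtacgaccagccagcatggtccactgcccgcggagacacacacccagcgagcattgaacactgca
G6pc: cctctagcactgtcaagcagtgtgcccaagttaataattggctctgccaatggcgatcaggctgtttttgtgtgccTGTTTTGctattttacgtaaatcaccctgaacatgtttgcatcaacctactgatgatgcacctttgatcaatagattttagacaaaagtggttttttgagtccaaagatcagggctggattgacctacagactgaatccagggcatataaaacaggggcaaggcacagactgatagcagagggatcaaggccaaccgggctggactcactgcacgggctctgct
Ppargc1a: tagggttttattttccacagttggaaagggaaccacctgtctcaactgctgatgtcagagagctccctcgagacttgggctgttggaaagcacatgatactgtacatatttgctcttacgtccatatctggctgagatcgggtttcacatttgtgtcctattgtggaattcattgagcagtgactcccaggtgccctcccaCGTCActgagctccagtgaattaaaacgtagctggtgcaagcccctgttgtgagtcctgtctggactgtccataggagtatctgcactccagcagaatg
Counted on both strands over windows of the same length, CAAAACA was in 8.28% of the 145 promoters of genes that rose, 8.08% of the 99 of genes that fell and 5.20% of the 8840 of all tested genes. TGACG was in 46.9% of promoters of genes that rose, 36.4% of those that fell and 35.1% of all tested. GTAAACA, another FOXO element, was in 4.14% of promoters of genes that rose, 3.03% of those that fell and 3.31% of all tested. AGAACA, the half-site of the glucocorticoid receptor, was in 13.8% of promoters of genes that rose, 15.2% of those that fell and 15.1% of all tested. These shares are a description, and a match of letters is not a bound site.

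Of the amino acid lists, 2 of 7 urea cycle genes, 2 of 14 amino acid breakdown genes and 2 of 13 amino acid transporters rose, and none fell. Among all tested genes 1.58% rose. Slc38a2 (chromosome 15, 96687392 to 96699728), a sodium-coupled transporter of small neutral amino acids that cAMP and amino acid shortage induce, had 12.002, 11.90, 11.87 and 12.14 in baclofen livers, against 10.09, 9.85 and 10.11 in vehicle livers. The values within each group were close together, and the difference of 1.96 ± 0.15 had the smallest adjusted p of any gene tested (1.29e-06). The mean of its probe sets gave a smaller difference of 1.09. Tat, tyrosine aminotransferase, a classic glucocorticoid-induced enzyme of tyrosine breakdown, had 14.02, 13.94, 14.05 and 14.00 in baclofen livers, against 12.43, 12.47 and 12.92 in vehicle livers (1.39 ± 0.22, adjusted p = 0.000973). The 4 baclofen livers were nearly equal, and all vehicle livers lay below them. Ass1, argininosuccinate synthase of the urea cycle, measured by 1 probe set here, had 9.99, 9.94, 9.96 and 10.13 in baclofen livers and 6.61, 7.77 and 8.56 in vehicle livers (2.36 ± 0.36, adjusted p = 0.000799). Here too the vehicle livers carried nearly all the spread, with replicate 1 lowest and replicate 3 highest. Aass of lysine breakdown rose by 0.70 ± 0.14 (adjusted p = 0.00688, and 0.0528 without vehicle replicate 1). The cationic amino acid transporter gene Slc7a2 rose by 0.84 ± 0.22 (adjusted p = 0.042) and lost its call without baclofen replicate 2, 3 or 4 or vehicle replicate 1 or 2 (adjusted p = 0.0809 to 0.234). The urea cycle count was 1 without baclofen replicate 2 or 3 or any vehicle replicate, the breakdown count 1 without vehicle replicate 1, and the transporter count 1 without baclofen replicate 2, 3 or 4 or vehicle replicate 1 or 2.

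**Figure D1:**
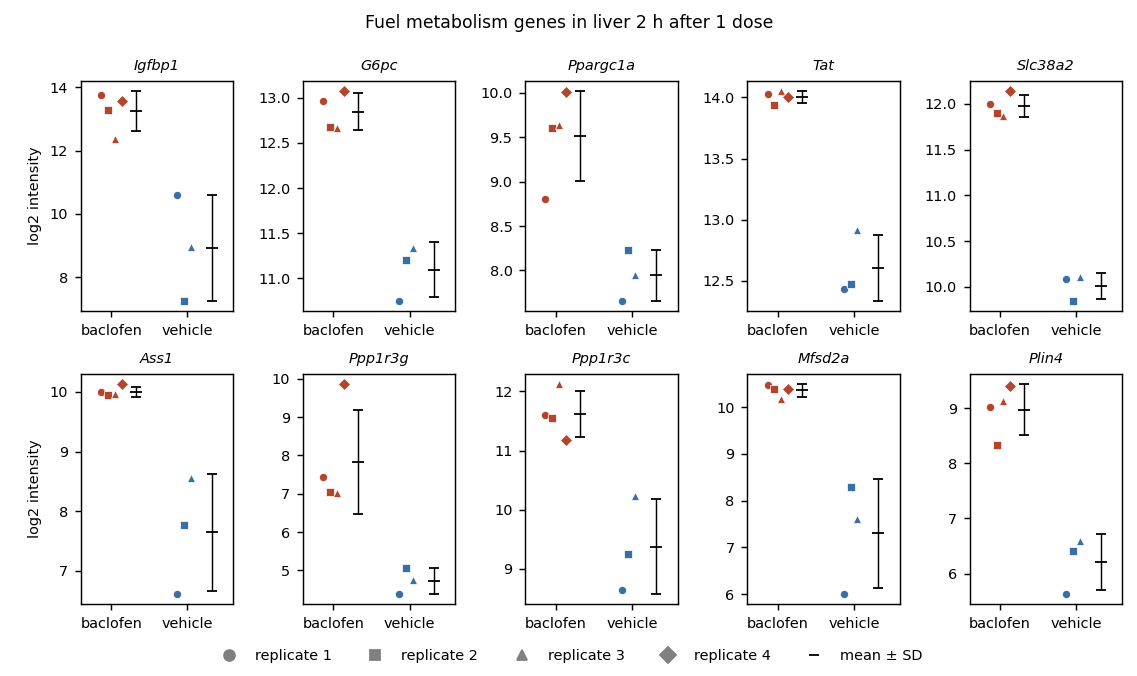
Log2 intensity of 10 genes of glucose, amino acid, glycogen and lipid metabolism in the 4 baclofen and 3 vehicle livers after 1 dose, with symbols for the replicate numbers and bars for mean ± SD. In each panel every baclofen liver lies above every vehicle liver, and for Igfbp1, Ass1 and Mfsd2a the vehicle livers are the more spread out.

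Of 14 glycogen metabolism genes 2 rose, against 1.58% of all tested genes, and none fell. The list median was 0.11 (0.07 without baclofen replicate 4). Both genes that rose encode subunits that bring protein phosphatase 1 to glycogen, where it favours glycogen synthesis. Ppp1r3g had 7.43, 7.03, 7.02 and 9.86 in baclofen livers, against 4.38, 5.06 and 4.75 in vehicle livers. Baclofen replicate 4 stood far above the rest, and the other baclofen livers still lay above all vehicle livers. The difference was 3.10 ± 0.49, or 8.60-fold (adjusted p = 0.000973). Ppp1r3c had 11.60, 11.56, 12.12 and 11.18 in baclofen livers, against 8.65, 9.25 and 10.24 in vehicle livers, a rise of 2.23 ± 0.42 (4.70-fold, adjusted p = 0.00484) with no overlap. The promoter of Ppp1r3g (chr13:35967656-35967955, plus strand), shown because Ppp1r3g had the larger rise of the pair, holds TGACG 40 bases before the start on its own strand.
Ppp1r3g: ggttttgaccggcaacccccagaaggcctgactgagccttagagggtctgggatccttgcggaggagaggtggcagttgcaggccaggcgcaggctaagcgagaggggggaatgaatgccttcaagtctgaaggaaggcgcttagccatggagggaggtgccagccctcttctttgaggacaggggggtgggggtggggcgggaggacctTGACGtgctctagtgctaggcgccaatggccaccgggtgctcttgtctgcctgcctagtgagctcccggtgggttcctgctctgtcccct

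Among 14 genes of glucose uptake and glycolysis control 4 rose and 1 fell, against 1.58% and 1.09% of all tested genes. The list median was 0.13, or 0.06, 0.07 and 0.08 without baclofen replicate 3, baclofen replicate 4 and vehicle replicate 1. The rise count was 2 without baclofen replicate 2 or 4 or vehicle replicate 1 or 2. Slc2a1, the widely expressed glucose transporter, had 8.35, 8.41, 8.45 and 8.05 in baclofen livers and 7.53, 7.12 and 7.49 in vehicle livers, with no overlap (0.93 ± 0.14, adjusted p = 0.00061). Pfkfb2, which sets the level of the glycolysis activator fructose 2,6-bisphosphate, rose by 0.88 ± 0.17 (adjusted p = 0.00489, 0.0696 in a fit of the 7 livers alone), and the mean of its probe sets gave 0.34. The other 3 are alpha-arrestins, a family that draws membrane proteins such as glucose transporters into the cell. Txnip had 10.09, 9.65, 8.91 and 10.30 in baclofen livers, against 8.78, 8.64 and 8.51 in vehicle livers, and rose by 1.10 ± 0.26 (adjusted p = 0.0284). Its baclofen replicate 3 came within 0.13 of a vehicle liver, and the call was lost without any liver but that one (adjusted p = 0.0535 to 0.106). Arrdc2 rose by 1.30 ± 0.31 (adjusted p = 0.0264) and lost its call without baclofen replicate 2, 3 or 4 or vehicle replicate 1 or 2 (adjusted p = 0.0545 to 0.135). Arrdc3 went the other way, with 6.52, 7.07, 7.65 and 7.45 in baclofen livers, against 9.74, 9.88 and 9.64 in vehicle livers. The 3 vehicle livers lay close together and well above every baclofen liver. It fell by 2.58 ± 0.54 (5.98-fold lower, adjusted p = 0.0108, and 0.0576 without vehicle replicate 2).

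Of 15 lipid droplet and lipin genes 5 rose, against 1.58% of all tested genes, and none fell. The list median was 0.41, and 3 rose without baclofen replicate 2 or vehicle replicate 1 or 3. Plin4 and Plin5 encode perilipins, which coat lipid droplets and, in the case of Plin5, join them to mitochondria. Plin4 had 9.02, 8.33, 9.13 and 9.41 in baclofen livers, against 5.63, 6.42 and 6.59 in vehicle livers (2.76 ± 0.39, 6.77-fold, adjusted p = 0.00035). Plin5 had 11.41, 10.94, 11.00 and 10.94 in baclofen livers, against 9.10, 9.23 and 9.61 in vehicle livers (1.76 ± 0.21, adjusted p = 0.000141). Neither gene had groups that overlapped, and the gaps between them were 1.73 for Plin4 and 1.34 for Plin5. Mfsd2a, a transporter of lysophosphatidylcholine that fasting induces in mouse liver, had 10.48, 10.39, 10.17 and 10.40 in baclofen livers and 6.01, 8.28 and 7.61 in vehicle livers. The baclofen livers were nearly level and vehicle replicate 1 was lowest, with a difference of 3.06 ± 0.39 (8.34-fold, adjusted p = 0.000214). Pnpla2, adipose triglyceride lipase, rose by 0.56 ± 0.12 (adjusted p = 0.0167) and lost its call without baclofen replicate 2 or vehicle replicate 1 or 3 (adjusted p = 0.0555 to 0.0837). Of 14 tested genes of fatty acid synthesis 1 fell and none rose, and 7 were higher and 7 lower in baclofen livers. The list median was 0.01, with differences from -1.73 to 1.16. The gene that fell was Angptl8, an insulin-induced secreted inhibitor of lipoprotein lipase. It had 7.78, 7.21, 8.03 and 7.94 in baclofen livers and 8.15, 10.10 and 10.17 in vehicle livers. Vehicle replicate 1 lay next to the baclofen livers, and the difference of -1.73 ± 0.42 (adjusted p = 0.031) lost its call without baclofen replicate 1, 2 or 4 or vehicle replicate 2 or 3 (adjusted p = 0.0593 to 0.196). Outside that list, Mid1ip1, an activator of acetyl-CoA carboxylase, fell by 1.39 ± 0.31 (adjusted p = 0.0165). It lost its call without baclofen replicate 1 or 2 or vehicle replicate 2 or 3 (adjusted p = 0.0526 to 0.0958). None of 15 cholesterol synthesis and uptake genes, 15 PPAR-alpha and fat oxidation genes and 20 bile acid genes passed in limma after 1 dose. At the share of all tested genes, 2.67%, lists of these sizes often hold none, so the counts do not show that the pathways were unchanged. The list medians were -0.11, 0.12 and 0.01. Of the PPAR-alpha genes 13 were higher in baclofen livers and 2 lower, with a largest difference of 1.11.

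Several growth arrest and stress genes rose strongly. Ddit4 (chromosome 10, 59949675 to 59951770), which restrains the growth kinase complex mTORC1, had 9.21, 10.03, 8.57 and 9.70 in baclofen livers, against 5.66, 5.89 and 6.31 in vehicle livers. The lowest baclofen liver lay 2.25 above the highest vehicle liver, and the difference was 3.43 ± 0.45 (10.8-fold, adjusted p = 0.000262). It was the only member of 14 tested mTORC1 regulators past the threshold. In the list of p53 targets and growth arrest genes 4 of 18 rose, against 1.58% of all tested genes, and none fell. The list median was 0.13, or 0.08 without baclofen replicate 1 and 0.05 without vehicle replicate 2, with 2 rising without vehicle replicate 2. Trp53inp1, a stress protein of autophagy and cell death, had 12.93, 11.95, 12.31 and 12.42 in baclofen livers, against 10.06, 9.43 and 10.21 in vehicle livers (2.50 ± 0.22, 5.66-fold, adjusted p = 5.39e-06). Cdkn1a, the cyclin-dependent kinase inhibitor p21, had 11.09, 9.75, 9.54 and 9.54 in baclofen livers, against 7.90, 6.30 and 7.94 in vehicle livers. Both genes had groups that did not overlap, and baclofen replicate 1 was highest for both. Cdkn1a rose by 2.60 ± 0.63 (6.06-fold, adjusted p = 0.0302) and lost its call without baclofen replicate 1, 2 or 4 or vehicle replicate 1 or 2 (adjusted p = 0.0521 to 0.204). Gadd45b, a growth arrest and DNA damage protein, rose by 1.41 ± 0.22 (adjusted p = 0.000973), with 0.92 for the mean of its probe sets. Plk3, a stress-response kinase, rose by 1.80 ± 0.38 (adjusted p = 0.0114, and 0.0692 and 0.0797 without vehicle replicates 2 and 3). Gadd45g had 11.07, 11.04, 9.12 and 11.19 in baclofen livers and 8.61, 8.35 and 6.30 in vehicle livers, and its difference of 2.85 ± 0.78 missed the threshold (adjusted p = 0.0561, under 0.05 without baclofen replicate 3). Replicate 3 was the lowest of its group on both sides. Pim3, a kinase that promotes cell survival, rose by 2.06 ± 0.25 (adjusted p = 0.000168).

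Of 19 glucocorticoid response genes 11 rose, against 1.58% of all tested genes, and none fell. The list median was 1.39, and 7 rose, with a median of 0.88, without vehicle replicate 1. Of the 11, Tat and Ddit4 are described above. Sgk1, a kinase of ion transport, had 10.23, 9.89, 9.42 and 9.96 in baclofen livers, against 7.97, 7.57 and 8.40 in vehicle livers (1.89 ± 0.31, adjusted p = 0.00165). Dusp1, a phosphatase that turns off MAP kinases, had 12.06, 10.97, 10.65 and 11.73 in baclofen livers, against 9.56, 9.21 and 9.001 in vehicle livers (2.10 ± 0.40, adjusted p = 0.00536). Neither had groups that overlapped, and baclofen replicate 3 was the lowest baclofen liver for both. The metallothioneins Mt1 and Mt2 bind zinc and copper. Mt1 had 13.94, 13.97, 13.95 and 14.02 in baclofen livers, against 11.20, 11.20 and 11.28 in vehicle livers. Mt2 had 13.21, 13.24, 13.26 and 13.12 in baclofen livers, against 9.61, 9.87 and 10.38 in vehicle livers. The livers of each group lay close together, but the SE of the fit, which takes its spread from all 19 livers, was wide, and the differences were 2.74 ± 0.57 for Mt1 (adjusted p = 0.0108) and 3.26 ± 0.76 for Mt2 (adjusted p = 0.0231). Leaving out vehicle replicate 2 ended the call of Mt1 (adjusted p = 0.0529), and that of Mt2 was lost without baclofen replicate 1, 2 or 4 or vehicle replicate 1 or 2 (adjusted p = 0.0515 to 0.0994). Nfkbia, the inhibitor of NF-kB, rose by 0.77 ± 0.16 (adjusted p = 0.0114, and 0.0858 and 0.0525 without vehicle replicates 1 and 2).

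The C/EBP factors Cebpb and Cebpd, which glucocorticoids and cAMP induce in liver, rose by 1.49 ± 0.18 and 2.02 ± 0.24 (adjusted p = 0.000184 and 0.000141). Cebpb had 12.79, 12.91, 12.53 and 12.81 in baclofen livers and 11.40, 11.02 and 11.38 in vehicle livers. Cebpd had 8.45, 8.38, 8.01 and 8.27 in baclofen livers and 6.32, 6.29 and 6.16 in vehicle livers. For both the groups did not overlap, and the mean of the Cebpd probe sets gave a smaller difference of 1.11. Of 10 Kruppel-like factors 3 rose, against 1.58% of all tested genes. Among the 3, Klf3, a repressor of lipid and blood cell genes, rose by 1.86 ± 0.21 (adjusted p = 7.99e-05, with 1.01 for the mean of its probe sets) and Klf2 by 0.96 ± 0.18 (adjusted p = 0.00459).

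Of 18 clock genes 3 rose, against 1.58% of all tested genes, and none fell (list median 0.23). Without vehicle replicate 1, 0 rose (limma). Per1, a repressor of the clock loop that glucocorticoids and CREB also induce directly, had 8.28, 8.39, 8.29 and 9.05 in baclofen livers, against 5.76, 6.93 and 7.50 in vehicle livers (1.77 ± 0.37, adjusted p = 0.0114). Noct, nocturnin, a rhythmic phosphatase, had 9.76, 9.82, 10.03 and 10.09 in baclofen livers, against 5.75, 7.96 and 8.55 in vehicle livers (2.51 ± 0.55, adjusted p = 0.0167). Ciart, a repressor of the CLOCK complex, had 8.30, 8.86, 9.04 and 9.36 in baclofen livers, against 5.99, 7.09 and 7.87 in vehicle livers (1.91 ± 0.49, adjusted p = 0.0434). For all 3 the groups did not overlap, vehicle replicate 1 was the lowest and vehicle replicate 3 the highest of the vehicle livers. Without vehicle replicate 1 the adjusted p was 0.0884 for Per1, 0.106 for Noct and 0.234 for Ciart, and Ciart lost its call also without baclofen replicate 2, 3 or 4 or vehicle replicate 2 (adjusted p from 0.0800). The hour of day at which each liver was taken is not given in the labels, and its part in these differences was not tested. The Ciart promoter (chr3:95882179-95882478, minus strand) is shown because it holds CACGTG, the E-box that the CLOCK complex binds, 3 times, in capitals, beginning 116, 58 and 44 bases before the start.
Ciart: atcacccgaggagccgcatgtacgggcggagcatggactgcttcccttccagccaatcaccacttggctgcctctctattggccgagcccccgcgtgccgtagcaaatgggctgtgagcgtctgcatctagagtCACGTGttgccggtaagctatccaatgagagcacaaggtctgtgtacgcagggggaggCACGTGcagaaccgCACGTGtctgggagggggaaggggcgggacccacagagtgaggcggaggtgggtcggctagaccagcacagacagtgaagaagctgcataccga
CACGTG was in 18.6% of promoters of genes that rose, 10.1% of those that fell and 12.02% of all tested.

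Transcription factors of hepatocyte identity had the highest share of falls of any list, among lists chosen with earlier results of these data known. Of 15 tested, 6 fell, 1 rose and 8 did not pass. Of all tested genes 1.09% fell and 1.58% rose. The list median was -0.42 against -0.01 over all genes, and the number that fell was between 4 and 6 when each liver was left out. The riser was Cebpb. Hhex (chromosome 19, 37434841 to 37440731), a homeobox factor needed for liver and bile duct development, had 7.26, 8.15, 8.22 and 8.97 in baclofen livers, against 11.27, 10.64 and 10.30 in vehicle livers. Its groups lay 1.33 apart at their nearest, and the difference was -2.58 ± 0.50 (6.00-fold lower, adjusted p = 0.00611). Foxa1 and Foxa2 are pioneer factors that open liver chromatin. Foxa1 had 6.92, 6.79, 6.91 and 6.92 in baclofen livers, against 9.29, 8.98 and 8.18 in vehicle livers (-1.94 ± 0.32, adjusted p = 0.00165). Foxa2 had 7.74, 8.18, 8.61 and 8.01 in baclofen livers, against 9.74, 10.22 and 8.97 in vehicle livers (-1.51 ± 0.25, adjusted p = 0.00177). Neither had groups that overlapped, and vehicle replicate 3 was the lowest vehicle liver for both. Foxq1, a forkhead factor, had 6.20, 6.85, 6.28 and 7.12 in baclofen livers, against 9.82, 8.64 and 7.74 in vehicle livers (-2.12 ± 0.41, adjusted p = 0.00536). Onecut1, the liver factor known as HNF6, had 6.92, 8.30, 5.90 and 8.30 in baclofen livers, against 9.94, 10.16 and 8.14 in vehicle livers. Foxq1 had no overlap, while for Onecut1 vehicle replicate 3 lay below 2 baclofen livers. Onecut1 fell by 2.06 ± 0.52 (adjusted p = 0.0393) and lost its call without baclofen replicate 1 or 3 or vehicle replicate 1 or 2 (adjusted p = 0.0960 to 0.223). Gata4 fell by 0.55 ± 0.14 (adjusted p = 0.0358) and lost its call without baclofen replicate 1, 2 or 4 or vehicle replicate 1 or 2 (adjusted p = 0.0723 to 0.206).

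**Figure D2:**
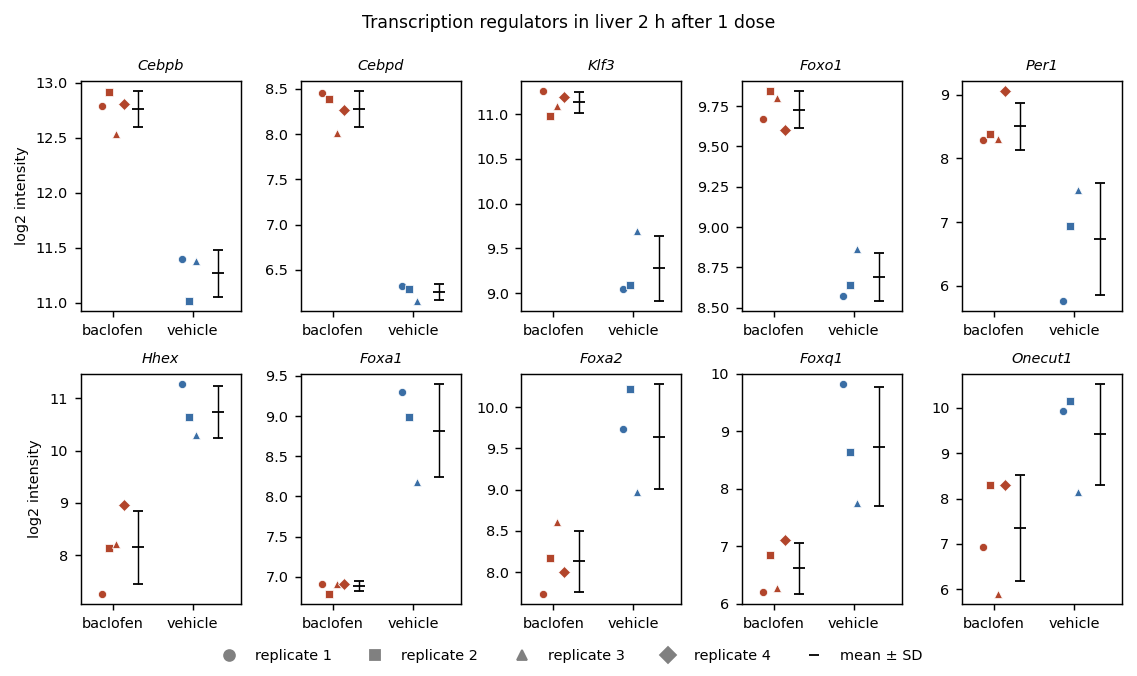
Log2 intensity of 10 genes of transcription regulators in the 4 baclofen and 3 vehicle livers after 1 dose, with symbols for the replicate numbers and bars for mean ± SD. The 5 genes of the upper row are higher in every baclofen liver than in any vehicle liver, and of the lower row all but Onecut1 are lower in every baclofen liver.

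Of 15 tested genes of BMP signalling, Id proteins and iron 2 fell and 1 rose, against 1.09% and 1.58% of all tested genes. The list median was -0.05. The riser was Bmp2, a ligand of the pathway, by 0.39 ± 0.10 (adjusted p = 0.0445), and its call was lost whichever of the 7 livers was left out (adjusted p = 0.0702 to 0.184). Id2 and Id3 encode inhibitors of DNA binding, which hold helix-loop-helix factors inactive and which BMP signals induce. Id2 had 9.68, 9.07, 9.30 and 9.52 in baclofen livers, against 11.68, 11.60 and 10.29 in vehicle livers (-1.80 ± 0.34, adjusted p = 0.00484). Id3 had 7.67, 7.25, 7.69 and 7.38 in baclofen livers, against 9.22, 9.38 and 8.52 in vehicle livers (-1.54 ± 0.28, adjusted p = 0.00439). The groups of both genes were apart, and vehicle replicate 3 was again the lowest vehicle liver. Fzd7, a receptor for Wnt proteins, had 6.23, 6.29, 6.84 and 5.85 in baclofen livers and 9.12, 7.50 and 7.69 in vehicle livers (-1.80 ± 0.33, adjusted p = 0.00376, 0.0525 in a fit of the 7 livers alone, with -1.09 for the mean of its probe sets). It was the only member past the threshold of 17 tested Wnt receptor, target and pericentral genes.

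Phlda1 (chromosome 10, 111506286 to 111508649), a pleckstrin homology protein that growth factor signals induce, had the largest fall of all genes past the threshold. It had 7.90, 8.86, 9.42 and 8.29 in baclofen livers, against 12.32, 11.58 and 10.44 in vehicle livers. The groups did not overlap, and the difference was -2.83 ± 0.38 (7.11-fold lower, adjusted p = 0.000273). Osgin1, an oxidative-stress-induced growth inhibitor, had 8.60, 8.54, 8.94 and 8.69 in baclofen livers, against 11.26, 10.61 and 10.79 in vehicle livers. It fell by 2.19 ± 0.30 (adjusted p = 0.000273) and was the only member past the threshold of 10 tested targets of the antioxidant factor Nrf2. Rgs3, which shortens G protein signalling, had 7.52, 7.49, 7.43 and 7.23 in baclofen livers and 8.75, 9.32 and 8.07 in vehicle livers (-1.29 ± 0.25, adjusted p = 0.00644, and 0.0692 without vehicle replicate 2). Among immediate early genes, Zfp36, which speeds decay of inflammatory mRNAs, rose by 1.33 ± 0.25 (adjusted p = 0.00507, and 0.0572 without vehicle replicate 2), and Ier2 fell by 0.51 ± 0.09 (adjusted p = 0.00296, 0.0654 in a fit of the 7 livers alone). Of 13 tested, 2 rose and 1 fell, against 1.58% and 1.09% of all tested genes, with a list median of -0.05. The rise count was 0 without vehicle replicate 2 and 1 without baclofen replicate 1, 2 or 4 or vehicle replicate 3.

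Of 8 interferon response genes 2 fell, against 1.09% of all tested genes, and none rose. The list median was -0.36, or -0.57 without vehicle replicate 2 and -0.23 without vehicle replicate 3. Irf1, the interferon regulatory factor, had 7.98, 8.26, 8.46 and 8.05 in baclofen livers, against 9.33, 9.20 and 9.51 in vehicle livers (-1.16 ± 0.18, adjusted p = 0.000949). Stat2, its signal transducer, had 6.57, 6.78, 7.41 and 6.89 in baclofen livers and 7.55, 7.71 and 7.97 in vehicle livers (-0.83 ± 0.16, adjusted p = 0.00489, 0.068 in a fit of the 7 livers alone). Both had groups that did not overlap. Rnf135, a ubiquitin ligase of the antiviral RIG-I pathway, fell by 1.07 ± 0.18 (adjusted p = 0.00229). Of 22 acute phase genes only Socs3, a feedback inhibitor of cytokine signalling, fell, by 1.10 ± 0.29 (adjusted p = 0.0454), and it lost its call without any liver but vehicle replicate 3 (adjusted p = 0.0623 to 0.232). The amyloid protein gene Saa3 had 8.77, 8.67, 8.30 and 8.43 in baclofen livers and 12.76, 7.75 and 8.15 in vehicle livers. Vehicle replicate 1 stood far above the other 6 livers, and the difference of -1.01 ± 1.02 (adjusted p = 0.81) was 0.60 without it. Saa3 is named for that library, after its values were seen. The Kupffer cell list was also lower in its median, mostly through vehicle replicate 1 as given above. Without that liver the interferon median was -0.31, against -0.36, and the acute phase median -0.01, against -0.21. Without vehicle replicate 3 the Kupffer median was -0.40. The part of the Kupffer cell list in these falls was not tested.

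Some of the largest changes lay outside the metabolic lists. Snhg3, a host gene of small nucleolar RNAs, had 9.91, 9.48, 7.95 and 9.62 in baclofen livers, against 6.52, 5.68 and 5.81 in vehicle livers (3.23 ± 0.45, 9.40-fold, adjusted p = 0.00035). Cirbp, the cold-inducible RNA-binding protein, had 7.74, 7.66, 7.64 and 7.91 in baclofen livers, against 6.27, 5.71 and 5.49 in vehicle livers (1.92 ± 0.30, adjusted p = 0.000973). The groups of both were apart, and of 12 tested cold and heat response genes Cirbp alone passed. Herpud1, which helps clear misfolded proteins from the endoplasmic reticulum, rose by 0.92 ± 0.16 (adjusted p = 0.00279) and was the only one of 19 unfolded protein and stress response genes to do so. Among the other genes with rises of more than 4-fold were Fam107a, an actin-binding stress protein (2.58 ± 0.49, adjusted p = 0.00507, with 1.67 for the mean of its probe sets), Tcim, a small regulator of Wnt and immune signalling (2.14 ± 0.29, adjusted p = 0.000273), Rasgef1b, a Ras exchange factor (2.07 ± 0.28, adjusted p = 0.000262), Setdb2, a SET domain protein (2.06 ± 0.37, adjusted p = 0.00358), and Fbf1, a centriole protein (2.04 ± 0.33, adjusted p = 0.00139). In all 5 every baclofen liver lay above every vehicle liver.

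The receptor that baclofen acts on was measured only in part. Gabbr1, the subunit of the GABA-B receptor that binds the ligand, had 5.95, 5.86, 6.04 and 5.79 in baclofen livers, against 5.72, 5.92 and 5.89 in vehicle livers. The groups overlapped, and the difference was 0.07 ± 0.08 (adjusted p = 0.832). Gabbr2, the subunit that couples to G proteins, has no value here. None of the 6 tested genes of the GABA-B receptor, GABA metabolism and its potassium channels passed in limma (list median 0.04). Other lists without a member past the threshold were 12 cytosolic ribosomal proteins, 20 oxidative phosphorylation subunits and 15 proteasome subunits, whose medians were -0.04, -0.02 and -0.02. With 2.67% of all tested genes past the threshold, lists of these sizes often hold none.

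**Figure D3:**
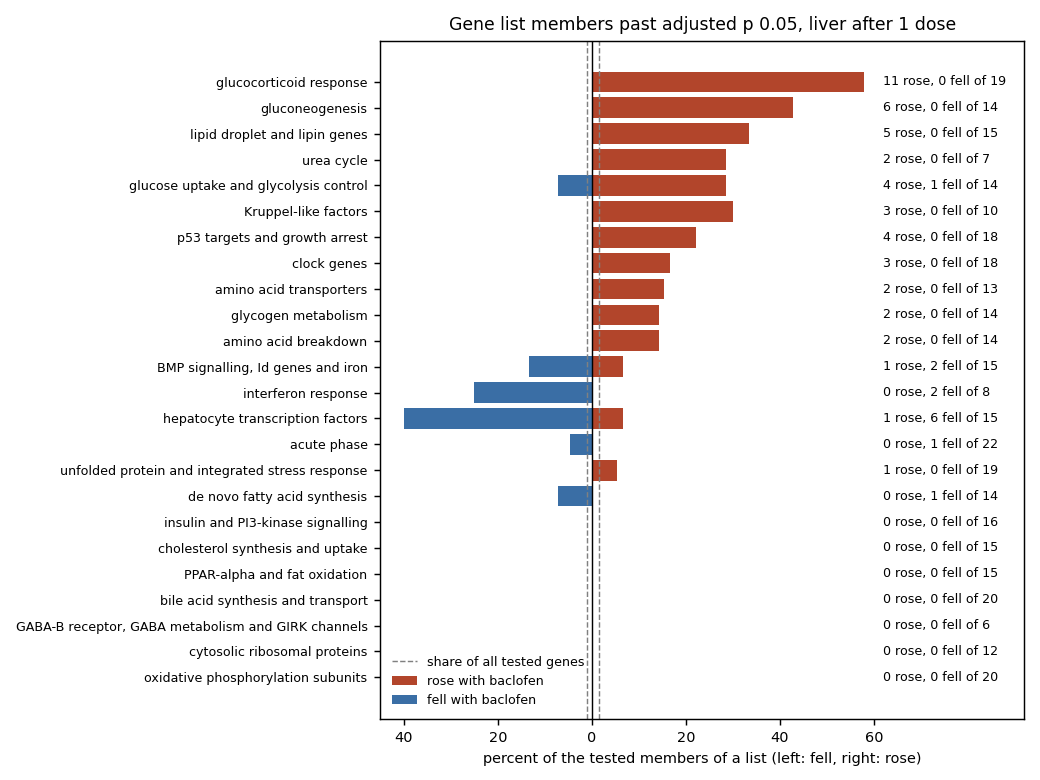
Share of the tested members of 24 gene lists that rose (right) or fell (left) with baclofen after 1 dose, with the counts written beside each bar and dashed lines at the share of all tested genes, 1.58% up and 1.09% down. The glucocorticoid response list has the highest share of rises, with 11 of 19, and the hepatocyte transcription factors the highest share of falls, with 6 of 15. The lists were chosen with earlier results of these data known.

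The livers taken after 5 daily doses have their own vehicle livers, so they give another measure of each gene. There 531 genes rose (4.86%) and 628 fell (5.75%). These counts rest on 8 baclofen and 4 vehicle arrays, against 4 and 3 after 1 dose. More arrays give smaller SEs, so the counts at the 2 times do not compare how broad the responses were. Of the 172 genes that rose after 1 dose 105 rose again after 5, and of the 119 that fell 50 fell again. The sign was the same for 267 of the 291. The median difference of the 172 genes was 0.50 after 5 doses, against 0.83 after 1 dose, and that of the 119 was -0.30, against -0.57. These genes were chosen for passing after 1 dose, so a smaller difference in livers that did not choose them carries no reading. Slc38a2 differed by 1.95 ± 0.12 after 5 doses and by 1.96 ± 0.15 after 1, and Ppargc1a by 1.71 ± 0.19 after 5 doses and by 1.57 ± 0.24 after 1. Rasgef1b (2.41 ± 0.22 after 5 doses), Id3 (-2.12 ± 0.23) and Cebpb (1.23 ± 0.15) also passed at both times.

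Other genes past the threshold after 1 dose differed little after 5. Cdkn1a had values from 6.43 to 7.53 with a median of 6.87 in the 8 baclofen livers after 5 doses and from 5.79 to 9.38 with a median of 6.60 in the 4 vehicle livers, a difference of -0.17 ± 0.51 (adjusted p = 0.865). Hhex ran from 8.34 to 11.01 with a median of 9.89 in baclofen livers and from 9.56 to 10.38 with a median of 9.99 in vehicle livers, a difference of -0.23 ± 0.40 (adjusted p = 0.758). The differences of Ppp1r3c and Foxq1 were 0.41 ± 0.34 and -0.48 ± 0.33 (adjusted p = 0.467 and 0.369). None of these 4 changes in effect passed the test of the difference between the times, where the effect after 5 doses minus that after 1 was -2.77 ± 0.81 for Cdkn1a (adjusted p = 0.288), 2.35 ± 0.65 for Hhex (adjusted p = 0.270), -1.82 ± 0.54 for Ppp1r3c (adjusted p = 0.288) and 1.64 ± 0.52 for Foxq1 (adjusted p = 0.340). Over all genes 2 passed that test, which is 0.0183%, while 1050 had an unadjusted p under 0.05. Leaving out 1-day livers gave between 0 calls (without baclofen replicate 1, 2 or 4 or vehicle replicate 1) and 4 (without vehicle replicate 3), with 1 without vehicle replicate 2. The 2 genes are Ccn1, a matrix-associated growth protein, and Fzd5, a Wnt receptor. Ccn1 had 6.28, 6.12, 5.91 and 5.96 in baclofen livers and 5.80, 6.07 and 5.83 in vehicle livers after 1 dose (0.17 ± 0.11, adjusted p = 0.648), and differed by -0.76 ± 0.09 after 5. Fzd5 had 6.84, 6.84, 6.74 and 7.01 in baclofen livers and 6.76, 6.62 and 6.98 in vehicle livers (0.07 ± 0.11, adjusted p = 0.897), and differed by -0.80 ± 0.08 after 5. The differences between the times were -0.93 ± 0.15 and -0.87 ± 0.14 (adjusted p = 0.0279 for both). Ccn1 lost this call without 1-day baclofen replicate 1, 2 or 4 or vehicle replicate 1 or 3 (adjusted p = 0.0541 to 0.133), and Fzd5 without baclofen replicate 1, 2 or 4 or vehicle replicate 1 or 2 (adjusted p = 0.0756 to 0.174). With probe sets averaged per gene no gene passed, Fzd5 had -0.41 (adjusted p = 0.231), and Ccn1 was not among the genes tested, as neither was with the filter at the 60th percentile.

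**Figure D4:**
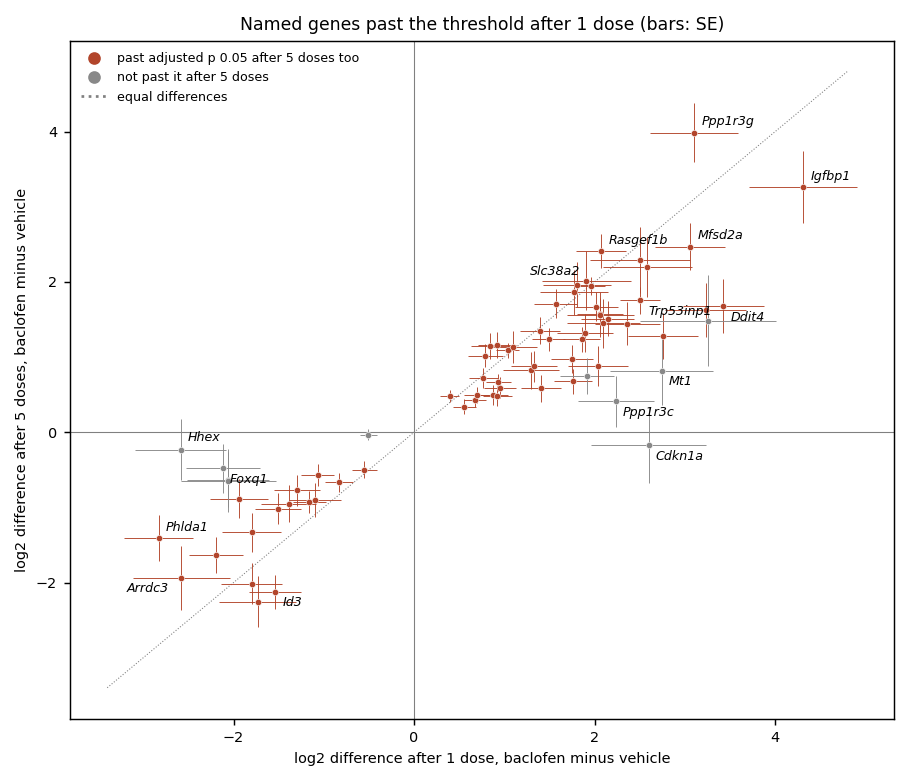
Log2 difference, baclofen minus vehicle, after 1 dose (horizontal) and after 5 daily doses (vertical) for the 71 named genes past the threshold after 1 dose, with SE bars. Most points lie on the same side of 0 on both axes, and Cdkn1a, Hhex, Foxq1 and Ppp1r3c lie near 0 on the vertical axis.

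Bone marrow and spleen taken after the same dose were used to test where the liver response differs, and some of its genes also passed there. The effect of baclofen in liver differed from that in bone marrow for 213 of 9375 genes tested in both (2.27%), and from that in spleen for 607 of 9302 (6.53%). Both tests use the same liver arrays. The count against spleen was 338 without spleen vehicle replicate 1, 387 without liver vehicle replicate 2 and 1235 without spleen vehicle replicate 3. The effect was the higher in liver for 144 of the 213 and for 338 of the 607, or for 416 of 608 with each array centred on its median. Of the genes past the threshold in liver, 110 of the 241 tested against bone marrow and 134 of the 244 tested against spleen were among those that differed. These genes were picked for their effect in liver, which the difference contains. With the same sign as in liver, 40 of the 241 also passed in bone marrow and 57 of the 244 in spleen. With the opposite sign 3 and 9 passed. The share of all tested genes that passed in bone marrow or in spleen was not counted. These counts therefore do not show that genes of the liver response passed there more often than other genes. Cirbp rose in bone marrow and spleen by 2.41 ± 0.27 and 2.44 ± 0.27, and Ddit4 by 2.30 ± 0.37 and 2.22 ± 0.37. Per1 rose by 2.14 ± 0.27 and 1.45 ± 0.27, and Dusp1 by 1.69 ± 0.30 and 1.15 ± 0.30. For none of these did the difference from liver pass (adjusted p = 0.172 to 0.791). Arrdc3 had the most negative difference of all genes past the threshold in each test, with a liver effect of -2.58, against 1.07 ± 0.37 in bone marrow and 1.24 ± 0.37 in spleen. The liver effect minus that of the other tissue was -3.66 ± 0.55 for bone marrow and -3.82 ± 0.55 for spleen (adjusted p = 8.38e-06 and 3.24e-06). Cebpd differed from bone marrow by 2.80 ± 0.33 (adjusted p = 5.63e-08), with an effect of -0.78 ± 0.22 there, and from spleen by 1.64 ± 0.33 (adjusted p = 0.000857). Slc38a2 differed from bone marrow by 2.23 ± 0.19 and from spleen by 2.24 ± 0.19 (adjusted p = 1.60e-12 and 1.35e-12), with effects of -0.27 ± 0.13 and -0.28 ± 0.13 there. Mt2 and Mt1 differed from spleen by 3.73 ± 0.74 and 3.08 ± 0.58 (adjusted p = 0.000797 and 0.000355). Against bone marrow the difference of Mt2, 2.18 ± 0.74, missed the threshold (adjusted p = 0.126), and that of Mt1, 2.16 ± 0.58 (adjusted p = 0.0283), lost its call without liver vehicle replicate 1 or 2, bone marrow baclofen replicate 1 or 4 or bone marrow vehicle replicate 2 (adjusted p = 0.0575 to 0.069). Noct and Snhg3 differed from bone marrow by 2.75 ± 0.57 and 2.77 ± 0.41 and from spleen by 3.35 ± 0.57 and 3.11 ± 0.41 (adjusted p from 6.77e-07 to 0.00197). Phlda1, Hhex, Osgin1 and Id2 fell in liver and had effects of -0.27, -0.28, -0.32 and 0.60 in bone marrow and of -0.43, -0.31, -0.03 and 0.34 in spleen, and their 8 differences passed (adjusted p from 6.77e-07 to 0.000698).

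**Figure D5:**
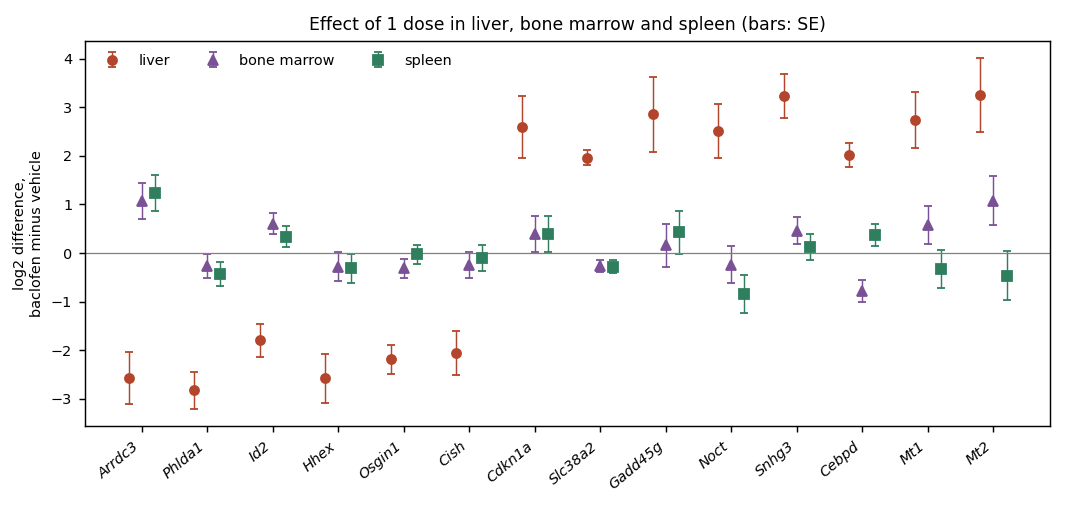
Log2 difference, baclofen minus vehicle, after 1 dose in liver, bone marrow and spleen for the 14 genes that were among the 6 largest differences past the threshold, in either direction, between liver and bone marrow or liver and spleen, with SE bars. The liver points of Arrdc3, Phlda1, Id2, Hhex, Osgin1 and Cish lie below those of the other tissues, and the liver points of the other 8 genes lie above them.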

How the data were processed

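Total RNA of each tissue was hybridised to Affymetrix mouse expression arrays. The submitters' processing notes name RMA and limma, without versions or roles. The deposited values are intensities on a linear scale, 1 per probe set, and the log2 was taken here. Of 45101 probe sets, 34945 have 1 gene symbol in the platform annotation, 932 several and 9160 none. Each gene was read from its probe set with the highest mean over the 19 livers, or over the 59 arrays for tissues. In this way 18193 genes had a value, and in the livers 10916 at or above the 40th percentile (an intensity of 42.9) were tested. Tests were 2-sided, with limma 3.58.1 (lmFit and eBayes, R 4.3.3) on 19 livers in 4 groups, or on 59 arrays in 12 groups for tissues, and Benjamini-Hochberg adjustment over all genes tested; the fit was tested on simulated data. Python 3.11.15, pandas 2.3.3, numpy 2.4.6, scipy 1.17.1 and matplotlib 3.10.9 did the rest. The number of arrays limits the precision.

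The genes, the 55 lists (716 of 779 genes matched by symbol) and the motifs were chosen with earlier results of these data known. Genes named were to be the 20 largest rises and falls, up to 6 members of each list past the threshold or 3 tested members of a list with none, and the genes with the largest differences between times or tissues, with Fzd5, Pck1 and Saa3 added after their values were seen; a part of the genes that the rule gives is described. Alternatives were other filters, probe set means, normalizations, weights, a control probe set covariate, a block and each array left out.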

Additional observations from a re-analysis of the deposited data

Results flagged for a closer look

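In 9 of the 78 named genes 1 baclofen liver stood apart from the other 3. Its gap to the nearest neighbour was over Dixon's 95% critical share of the group's range. Chance gives such a gap in about 1 in 20 groups. The share is relative to that range, so a flagged liver can be near the others in level, as for Foxa1. Vehicle livers were not put to this rule. Baclofen replicate 3 was the low liver for Gadd45g (9.12, a ratio of 0.927) and stood apart for Nfkbia (11.28, 0.947) and Zfp36 (10.02, 0.939). Baclofen replicate 4 stood apart for Ppp1r3g (9.86, 0.857), Per1 (9.05, 0.859) and Socs3 (7.03, 0.850). Baclofen replicate 1 was the high liver for Plin5 (11.41, 0.883) and Cdkn1a (11.09, 0.860), and baclofen replicate 2 the low liver for Foxa1 (6.79, 0.943).

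The effect after 5 doses minus that after 1 passed the test for Ccn1 (-0.93) and Fzd5 (-0.87).

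The effect in liver minus that in bone marrow passed, on the negative side, for Arrdc3 (-3.66), Phlda1 (-2.56), Id2 (-2.41), Hhex (-2.30), Osgin1 (-1.87) and Cish (-1.81). On the positive side it passed for Cebpd (2.80), Snhg3 (2.77), Noct (2.75), Gadd45g (2.70), Slc38a2 (2.23) and Cdkn1a (2.20). The effect in liver minus that in spleen passed for Arrdc3 (-3.82), Phlda1 (-2.40), Hhex (-2.27), Osgin1 (-2.16), Id2 (-2.14) and Cish (-1.96), and on the positive side for Mt2 (3.73), Noct (3.35), Snhg3 (3.11), Mt1 (3.08), Gadd45g (2.43) and Slc38a2 (2.24). These 24 are the 6 largest in each direction of each test among all genes that passed it. In limma the difference from bone marrow was lost for Cish without liver vehicle replicate 1 (adjusted p = 0.0538), for Gadd45g without liver vehicle replicate 3 (adjusted p = 0.109) and for Cdkn1a without liver baclofen replicate 1 (adjusted p = 0.0628) or vehicle replicate 2 (adjusted p = 0.140). The difference of Gadd45g from spleen was lost without liver vehicle replicate 3 (adjusted p = 0.113).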

How the results depend on the processing

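The 291 calls after 1 dose were 518 with array weights, 171 with a minimum of 1.5-fold and 125 at an adjusted p under 0.01, and 0 with groups from the source field (456 at an unadjusted p under 0.05). Leaving out each liver gave 136 to 306 calls, with 136 without vehicle replicate 2. Deviations of same-numbered baclofen and vehicle livers correlated at 0.26, -0.09 and 0.23, and the same-numbered liver was the best match for replicates 1 and 3 but not 2, so a pairing by number was not established. The replicate block gave 139 calls (95 up and 44 down) and kept 43 of the 71 named calls. A fit of the 7 livers alone kept 58 of the 71, the trend and robust options 65 and the control probe set covariate 65. The 13 calls that the fit of the 7 livers ended had adjusted p = 0.0522 to 0.195. They were those of Cish, Slc7a2, Pfkfb2, Txnip, Angptl8, Mid1ip1, Per1, Noct, Ciart, Ier2, Onecut1, Fzd7 and Stat2. For Mt1 and Mt2 that fit gave adjusted p = 1.77e-07 and 3.64e-05. The array weights, probe set means, quantile normalization and median centring kept all 71, and no filter kept 69. Median centring gave 195 rises and 90 falls among 285 calls. The difference between the times gave 0 to 4 calls over the leave-outs, against 2. Among alternatives chosen after seeing the data it gave 0 with probe set means, with the 60th percentile filter and with the replicate block (limma, adjusted p = 0.297 for Ccn1 and Fzd5), and 2 or 3 with the covariate, trend and quantile settings. The 2 livers whose labels all name the same treatment shared the sign of all 291 calls, which says nothing about the labels, since both entered the fit and the groups of 284 do not overlap. The count against bone marrow was 552 with array weights and 146 to 272 over the leave-outs, with 272 without bone marrow baclofen replicate 3. The count against spleen was 1453 with array weights, 674 with no filter (322 higher and 352 lower in liver) and 338 to 1235 over the leave-outs. The sign turned for Saa3 without vehicle replicate 1 (0.60, with a range of -1.91 to 0.60 over the leave-outs) and for the 1-dose difference of Fzd5 without vehicle replicate 2 (-0.015, the lowest of a range up to 0.17). The cause of these shifts was not tested.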
